A study of Mus musculus with 18 samples.

Results

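Glycolysis, pentose phosphate and sugar enzymes are described here by 36 genes, chosen by name for the reactions they carry out. The list was made with earlier results of these data known. All 36 were among the 21923 genes of the count table, and 35 of them passed the filter on low counts. RNA came from the cortex of male C57BL/6 mice, from astrocyte ribosomes pulled down by translating ribosome affinity purification (TRAP), in which a tagged ribosomal protein is immunoprecipitated (IP) with the mRNA it carries. The cKO mice are labelled GLUT1 flox/flox;GLAC +/wt, and the control mice, labelled WT, carry GLAC +/wt without the floxed alleles. Per the study's methods, both groups carried the tamoxifen-inducible recombinase GLAST CreERT2 and received the vector AAV-PHP.eB-hGFAP-DIO-EGFPL10a, which needs the recombinase to express EGFP-tagged L10a. The recombinase and the tag are therefore driven by astrocyte promoters, and any cell in which both are active can add mRNA to the IP. Both groups also received tamoxifen at 8 to 10 weeks of age, and TRAP RNA was taken 60 days later. The comparison addresses whether astrocytes that lose the glucose transporter GLUT1 change the mRNA of the enzymes that use glucose, and it set 3 control libraries (11, 15 and 19) against 4 cKO libraries (1, 5, 9 and 17). The labels list 5 control IP samples, of which 2 were not analysed here, and neither were the input samples. The study dropped 1 sample that had too few reads, and it also dropped IP samples in which neuronal genes ran high. Its own IP comparison also had 3 control and 4 cKO samples, so the 2 control IP samples were left out there too. The labels list 4 cKO IP samples, so among labelled IP samples only controls were left out. The methods do not name the dropped samples, so the reason for these 2 was not tested.

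Glycolysis phosphorylates glucose, splits it into triose phosphates and converts these to pyruvate, with a net gain of ATP and NADH. The pentose phosphate pathway branches off at glucose 6-phosphate, where its oxidative arm makes NADPH and its non-oxidative arm exchanges sugar phosphates with glycolysis. Astrocytes are known for a high glycolytic rate and for lactate release, and several of the enzymes exist as paralogs used unequally by brain cells: Aldoc is a classic astrocyte enzyme, and Eno2 is known as neuron-specific enolase.

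The libraries held 12570309 to 40734343 estimated counts, so that 3 counts corresponded to 0.0762 to 0.222 counts per 1000000 counts (CPM) after TMM normalization, a scaling that balances library composition. All levels below are on this scale and are not divided by transcript length. Levels of single genes are compared only between libraries. Sums and shares over several genes follow the counts, so genes with high counts weigh more in them. Astrocyte markers such as Slc1a2, Aqp4 and Aldh1l1 were present in every library, and the 8 listed markers summed to 12528–17515 CPM in control and 13005–19463 CPM in cKO libraries. Neuron markers were present as well, with 8 markers summing to 3130–4141 CPM in control and 2728–4185 CPM in cKO libraries, and 6 oligodendrocyte markers summed to 716–799 and 448–840 CPM. The 5 measured microglial markers summed to 39.4–77.0 CPM and 5 endothelial markers to 10.9–23.8 CPM over all libraries. Slc2a1, which encodes GLUT1, stood at 59.5 ± 2.02 CPM (SD, n = 3) in control and 59.0 ± 2.30 CPM (SD, n = 4) in cKO libraries, a log2 difference of -0.013 with a 95% interval from -0.28 to 0.25. A count over the whole gene does not single out the deleted exons, so it does not check the genotype. The study counted reads over a set of Slc2a1 exons in a separate alignment, which was not analysed here. The libraries are called control and cKO as they are labelled.

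No member passed the threshold between genotypes. Of the 35 members tested, 0 had an adjusted p under 0.05 in edgeR's quasi-likelihood test, against 0.0451% of all 13296 genes tested. The lowest adjusted p of a member was 0.9996. At an unadjusted p under 0.05, 1 member was found, the glycerol phosphate dehydrogenase Gpd1, which is 2.86% of the members against 2.58% of all genes. DESeq2 and edgeR's exact test also called 0 members. The log2 differences, cKO against control, ranged from -0.48 for Khk to 0.26 for Rpe, with 11 positive and 24 negative values and a median of -0.072, beside a median of 0.012 and 47.7% negative values over all genes. That tally rested on single libraries: it was 20 positive and 15 negative without control library 15, 18 and 17 without cKO library 17, and 4 and 31 without cKO library 1 or control library 19. In bulk IP libraries, a change in the number of cells that carry the tag and a change in RNA per cell cannot be told apart.

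**Figure D1:**
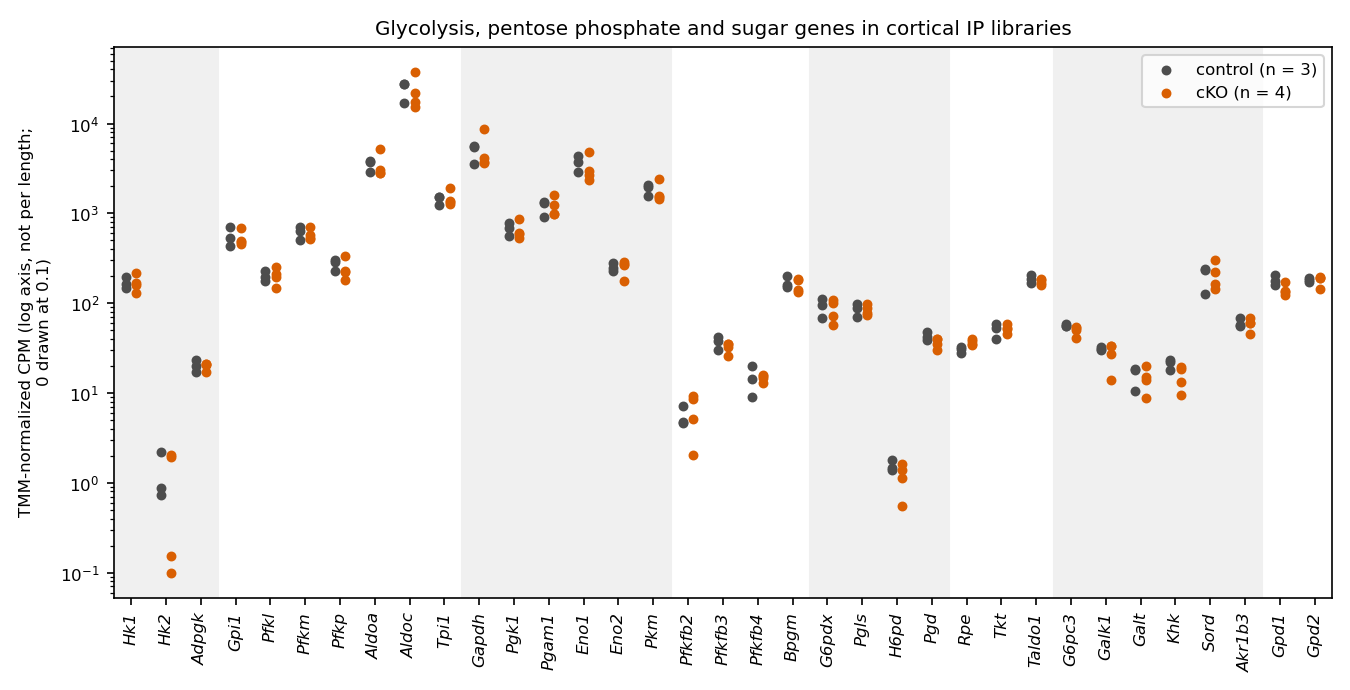
Each point is the level of 1 member in 1 IP library, in TMM-normalized CPM on a log axis and not per length, for 3 control (grey) and 4 cKO (orange) libraries, with shaded bands separating the roles of the enzymes and a value of 0 drawn at 0.1. Points of both groups overlap in all but Rpe, higher in cKO, and G6pc3, lower in cKO, and Rpia, which was not tested, is not drawn.

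**Figure D2:**
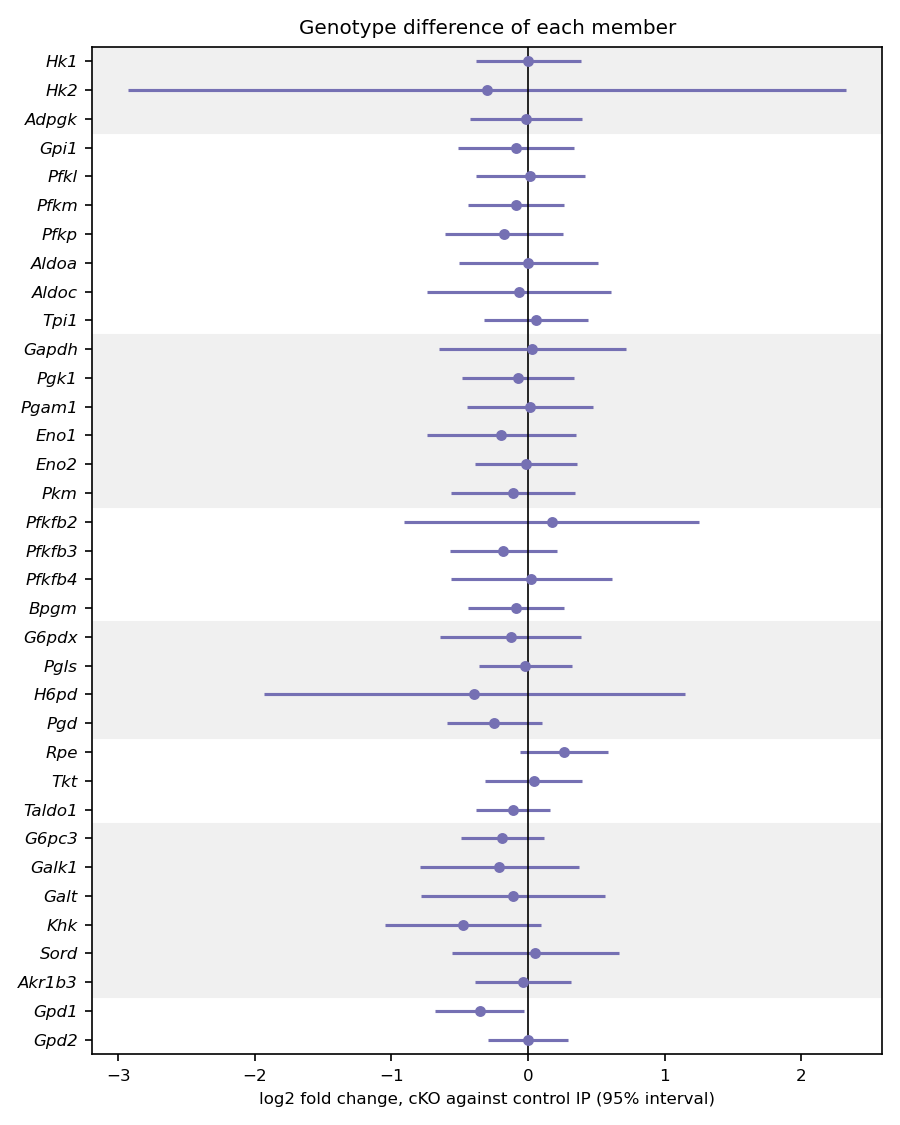
Points are the log2 fold changes of the 35 tested members, cKO against control IP, and bars are 95% intervals from edgeR's quasi-likelihood fit. The interval excludes 0 only for Gpd1, whose adjusted p was 0.9996, and the widest intervals belong to Hk2, H6pd and Pfkfb2.

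Hexokinases trap glucose in the cell as glucose 6-phosphate, and their levels overlapped between the groups. Hk1, the main brain isoform, stood at 161.7, 195.7 and 146.0 CPM in control libraries 11, 15 and 19. In cKO libraries 1, 5, 9 and 17 it stood at 214.2, 131.0, 160.3 and 167.3 CPM. The highest and the lowest Hk1 value were thus both cKO values, and the log2 difference was 0.0029 with a 95% interval from -0.38 to 0.39. Hk2, an isoform bound to mitochondria and raised by insulin or hypoxia in other tissues, had 86, 20 and 18 counts in the control libraries. In the cKO libraries it had 31, 4, 41 and 0 counts, and the 0 allows up to 0.222 CPM in library 17, counting error only. Hk2 thus varied widely within both groups, and the 95% interval of its log2 difference ran from -2.93 to 2.33. Adpgk, which uses ADP in place of ATP, stood at 20.04 ± 3.12 CPM in control (SD, n = 3) and 19.8 ± 1.71 CPM in cKO libraries (SD, n = 4).

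Phosphofructokinase sets the pace of upper glycolysis, and the brain expresses all its isoforms. Pfkm, the muscle-type isoform, stood at 631.2, 710.8 and 510.4 CPM in control libraries 11, 15 and 19, and at 703.0, 529.6, 574.5 and 519.6 CPM in cKO libraries 1, 5, 9 and 17. Pfkp, the platelet-type isoform, stood at 286.8, 301.9 and 225.6 CPM in control and at 331.7, 220.4, 225.8 and 182.9 CPM in cKO libraries. Both isoforms were high in libraries 11, 15 and 1 and overlapped between the genotypes. Pfkl, the liver-type isoform, stood at 196.5, 227.1 and 174.3 CPM in control and at 254.5, 211.9, 193.5 and 145.8 CPM in cKO libraries, so that cKO again held both extremes. The log2 differences were -0.086 (SE 0.16) for Pfkm, -0.18 (SE 0.20) for Pfkp and 0.016 (SE 0.18) for Pfkl.

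The aldolases split fructose 1,6-bisphosphate into triose phosphates. Aldoc, the astrocyte aldolase, stood at 27622, 27561 and 17036 CPM in control libraries 11, 15 and 19. In cKO libraries 1, 5, 9 and 17 it stood at 37440, 17562, 21718 and 15321 CPM. The cKO values thus enclosed the control values, and Aldoc differed by 2.44-fold between the highest and the lowest cKO library. Aldoa, the widely expressed aldolase, stood at 3682, 3817 and 2890 CPM in control and at 5185, 2821, 3054 and 2803 CPM in cKO libraries. Library 1 was again the highest. The log2 difference was -0.065 (SE 0.30) for Aldoc and 0.0011 (SE 0.23) for Aldoa. Gpi1, which isomerizes glucose 6-phosphate, and Tpi1, which interconverts the triose phosphates, stood at 558.7 ± 133.5 and 1420 ± 155.1 CPM in control (SD, n = 3) and at 526.1 ± 102.6 and 1480 ± 304.8 CPM in cKO libraries (SD, n = 4), with differences of -0.087 and 0.060.

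Lower glycolysis turns triose phosphates into pyruvate and returns ATP. Gapdh, which makes the NADH of the pathway, stood at 5461, 5672 and 3576 CPM in control libraries 11, 15 and 19. In cKO libraries 1, 5, 9 and 17 it stood at 8620, 3614, 4113 and 3696 CPM, so that library 1 lay far above the other 6 libraries, which overlapped. Eno1, the enolase found in most cells, stood at 3698, 4387 and 2885 CPM in control and at 4830, 2671, 2923 and 2355 CPM in cKO libraries. Eno2 stood at 248.9, 279.5 and 226.3 CPM in control and at 284.5, 266.2, 176.1 and 269.8 CPM in cKO libraries. The enolases differed in which library was lowest: cKO library 17 for Eno1 and cKO library 9, the library with the lowest neuron marker sum, for Eno2. Pkm, which makes pyruvate, stood at 1985, 2088 and 1545 CPM in control and at 2433, 1507, 1562 and 1435 CPM in cKO libraries. The 6 genes of this group had log2 differences from -0.19 (Eno1, SE 0.25) to 0.031 (Gapdh, SE 0.31), and those of Pgk1 and Pgam1, a kinase and a mutase of the pathway, were -0.072 and 0.015. Pgk1 stood at 676.1 ± 107.0 CPM in control and 643.2 ± 147.9 CPM in cKO libraries, and Pgam1 at 1190 ± 236.2 and 1203 ± 297.2 CPM. Without cKO library 1 the differences of Gapdh and Aldoa turned from positive to -0.36 and -0.26, and 5 members (Eno1, Gpd1, Khk, Pfkp and Pkm) had an unadjusted p under 0.05 with 0 called. These are 14.3% of the members, against 3.67% of the 13253 genes tested in that fit.

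Aldoc, Gapdh and Eno1 are members with high counts that moved together across the libraries, and their first RefSeq promoter windows (GRCm38.p6, 250 bases before to 50 after the start) are shown for that reason. Aldoc lies on the plus strand at chr11:78322823-78323122, Gapdh on the minus strand at chr6:125165724-125166023 and Eno1 on the plus strand at chr4:150236458-150236757, each printed 5′ to 3′ along its gene. Capitals mark ACGTG on either strand, letters found in the core of the hypoxia response element and contained in the E-box CACGTG, elements known from the promoters of glycolytic genes.
Aldoc: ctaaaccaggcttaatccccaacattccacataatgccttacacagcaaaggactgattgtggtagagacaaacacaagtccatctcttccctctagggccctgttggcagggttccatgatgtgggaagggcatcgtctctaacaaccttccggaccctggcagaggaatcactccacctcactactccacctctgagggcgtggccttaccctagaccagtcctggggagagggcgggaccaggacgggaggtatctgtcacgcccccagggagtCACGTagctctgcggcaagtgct
Gapdh: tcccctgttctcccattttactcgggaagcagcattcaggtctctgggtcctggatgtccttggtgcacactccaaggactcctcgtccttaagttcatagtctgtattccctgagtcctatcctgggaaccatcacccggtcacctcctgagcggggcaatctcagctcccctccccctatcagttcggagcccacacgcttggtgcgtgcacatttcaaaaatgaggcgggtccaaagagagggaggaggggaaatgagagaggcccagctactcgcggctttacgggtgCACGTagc
Eno1: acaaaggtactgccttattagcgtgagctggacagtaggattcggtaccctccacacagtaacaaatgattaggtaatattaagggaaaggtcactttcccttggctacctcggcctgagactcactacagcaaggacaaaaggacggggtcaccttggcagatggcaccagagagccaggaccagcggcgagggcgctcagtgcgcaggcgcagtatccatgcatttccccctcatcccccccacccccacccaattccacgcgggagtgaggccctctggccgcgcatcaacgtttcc
The letters were found at base 278 of the Aldoc window and base 293 of the Gapdh window, both on the opposite strand, and not in this window of Eno1. Of the 34 members with a window in the table, 18 (52.9%) had the motif in at least 1 window, against 21.8% of all 27025 genes. By window, the count was 22 of 50 (44.0%) against 19.6% of 32851. A match describes the letters of a window and was not set against binding or expression.

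The regulators of phosphofructokinase set fructose 2,6-bisphosphate, its activator. Pfkfb3, an isoform whose kinase activity dominates, stood at 41.6, 37.7 and 29.95 CPM in control libraries 11, 15 and 19 and at 35.3, 32.3, 35.5 and 25.5 CPM in cKO libraries 1, 5, 9 and 17. The groups overlapped, with a log2 difference of -0.18 (SE 0.18). Pfkfb2 and Pfkfb4 stood at 5.54 ± 1.45 and 14.5 ± 5.44 CPM in control (SD, n = 3) and at 6.24 ± 3.34 and 14.7 ± 1.29 CPM in cKO libraries (SD, n = 4). Bpgm, which makes 2,3-bisphosphoglycerate, stood at 169.6 ± 25.7 and 159.6 ± 26.2 CPM.

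All 4 genes of the oxidative pentose phosphate arm had negative differences, none of them past the test, beside 24 negative values among the 35 tested members. G6pdx, which commits glucose 6-phosphate to the pathway, stood at 96.6, 110.9 and 67.5 CPM in control libraries 11, 15 and 19 and at 107.2, 71.2, 100.6 and 57.2 CPM in cKO libraries 1, 5, 9 and 17. Its range was nearly the same in both groups, with a log2 difference of -0.13 (SE 0.23). Pgd, the next NADPH-forming enzyme, stood at 42.7 ± 4.14 CPM in control and 36.1 ± 4.76 CPM in cKO libraries, a log2 difference of -0.25 (SE 0.16, unadjusted p = 0.144, adjusted p = 0.9996). Pgls, the lactonase between them, stood at 85.8 ± 14.2 and 84.7 ± 10.6 CPM, a difference of -0.020 (SE 0.15). H6pd, the form of the endoplasmic reticulum, lay between 0.555 and 1.78 CPM, and its log2 difference of -0.39 had an SE of 0.70.

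In the non-oxidative arm, Rpe, the ribulose phosphate epimerase, was the only member whose cKO libraries all lay above the control libraries. It ranged from 28.2 to 32.8 CPM in control and from 33.9 to 40.0 CPM in cKO libraries. The log2 difference was 0.26 (SE 0.15, unadjusted p = 0.0979, adjusted p = 0.9996). Such separation upwards was seen in 1 of 35 members against 2.35% of all genes. Tkt, the transketolase, stood at 53.2, 58.2 and 40.2 CPM in control and at 58.2, 51.3, 45.6 and 53.1 CPM in cKO libraries, with the lowest value in control library 19. Its log2 difference was 0.042 (SE 0.16), and that of the transaldolase Taldo1, at 186.1 ± 19.2 and 172.6 ± 11.9 CPM, was -0.11 (SE 0.12). Rpia, the ribose phosphate isomerase, had 13, 2 and 9 counts in control and 4, 0, 2 and 6 counts in cKO libraries and was too low to be tested.

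Gpd1 reduces dihydroxyacetone phosphate to glycerol 3-phosphate in the cytosol and oxidizes NADH, and Gpd2 is its mitochondrial partner in the glycerol phosphate shuttle. Gpd1 (GRCm38.p6, chr15:99717587-99725014) stood at 204.3, 159.7 and 177.4 CPM in control libraries 11, 15 and 19. In cKO libraries 1, 5, 9 and 17 it stood at 172.2, 133.6, 136.8 and 121.8 CPM. Cytosolic Gpd1 was thus lower in 3 cKO libraries than in any control library, while cKO library 1 lay above control library 15. The log2 difference was -0.35 (SE 0.15), with a 95% interval from -0.68 to -0.030, an unadjusted p of 0.0351 and an adjusted p of 0.9996 in edgeR's quasi-likelihood test, so it did not pass over all genes. Leaving out 1 library at a time gave -0.46 (without cKO library 1) to -0.26, with unadjusted p from 0.0075 to 0.166. The unadjusted p stayed under 0.05 only without control library 15 or cKO library 1, and without any of the other 5 libraries it lay between 0.0636 and 0.166. Gpd2 stood at 179.2, 190.6 and 170.2 CPM in control and at 188.4, 190.1, 195.4 and 145.2 CPM in cKO libraries. Its log2 difference was -0.0014 with a 95% interval from -0.29 to 0.29, and cKO library 17 alone lay below the others. Gpd1l, a relative of Gpd1 in the wider list, had a log2 difference of 0.091 (SE 0.16).

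Among the enzymes of other sugars, Khk, the ketohexokinase that starts fructose use, had the most negative log2 difference of the tested members, -0.48 (SE 0.26, unadjusted p = 0.0929, adjusted p = 0.9996). It ranged from 18.1 to 23.4 CPM in control and from 9.41 to 19.6 CPM in cKO libraries, which overlapped. G6pc3, the ubiquitous glucose 6-phosphatase, was the only member whose cKO libraries all lay below the control libraries. It ranged from 56.1 to 58.1 CPM in control and from 41.2 to 54.9 CPM in cKO libraries. The log2 difference was -0.19 (SE 0.14, unadjusted p = 0.206), and separation downwards was seen in 1 of 35 members against 2.76% of all genes. For galactose, Galk1 and Galt, the kinase and the uridylyltransferase, stood at 31.3 ± 1.16 and 15.7 ± 4.39 CPM in control and at 27.0 ± 9.23 and 14.5 ± 4.71 CPM in cKO libraries, with differences of -0.21 (SE 0.26) and -0.11 (SE 0.31). For the polyol pathway, Akr1b3 (aldose reductase) and Sord (sorbitol dehydrogenase) stood at 60.2 ± 6.80 and 200.2 ± 63.7 CPM in control and at 58.7 ± 9.49 and 208.0 ± 70.9 CPM in cKO libraries, with differences of -0.035 (SE 0.16) and 0.055 (SE 0.28).

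The members spread more between libraries of the same genotype than the genotype means stood apart, 44804 ± 9667 CPM in control (SD, n = 3) and 43104 ± 16321 CPM in cKO libraries (SD, n = 4). By library, their summed level was 49644, 51094 and 33673 CPM in control libraries 11, 15 and 19 and 67001, 34210, 39871 and 31335 CPM in cKO libraries 1, 5, 9 and 17. This amounted to 3.13% to 6.70% of all CPM, and Aldoc supplied 48.9% to 55.9% of it. Library 1 held the highest value of 16 of the 35 members and library 17 the lowest of 17, where over all genes they held 11.5% of the highest and 27.7% of the lowest values.

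The lowest libraries were mostly those with the highest sums of neuron, microglial and endothelial markers and the lowest sums of astrocyte markers. The part of each cell type in these levels was not tested. The study left out IP samples high in neuronal genes, so these are the libraries kept after that step. Control library 19 and cKO libraries 5 and 17 had neuron marker sums of 4141, 4185 and 4175 CPM, and the other 4 libraries had 2728 to 3345 CPM. The listed neuron markers did not all follow their sum. Rbfox3, Snap25, Syt1, Stmn2 and Camk2a were higher in libraries 19, 5 and 17 than in any other. Gad1 was lower, at 29.0, 23.7 and 34.3 CPM against 39.6 to 61.4 CPM, and Slc17a7 and Nefl overlapped. In 17 of 35 members (48.6%), these 3 libraries lay below all other libraries, against 10.2% of all genes. The 17 were Gpi1, Pfkm, Pfkp, Aldoa, Aldoc, Tpi1, Gapdh, Pgk1, Pgam1, Eno1, Pkm, Pfkfb3, Bpgm, G6pdx, Pgls, Galk1 and Sord, and 11 of these are among the 13 upper and lower glycolysis genes. Genes of this set vary together across libraries, so the 17 are not independent. The gap to library 9, which had the lowest neuron marker sum, varied. Library 9 stood at 1562 CPM for Pkm, 2923 for Eno1 and 21718 for Aldoc. The highest of libraries 19, 5 and 17 stood at 1545, 2885 and 17562 CPM. Only Pfkfb2 lay above in all 3, against 11.5% of all genes: it stood at 7.21, 8.56 and 9.26 CPM in libraries 19, 5 and 17 and at 2.04 to 5.12 CPM in the others. Summed astrocyte markers were 12528, 13005 and 14071 CPM in libraries 19, 5 and 17 and 16145 to 19463 CPM in the others. Aqp4, Slc1a2 and Slc1a3 were lower in these 3 libraries than in any other. Aldh1l1, Gja1, Gfap, S100b and Fgfr3 overlapped, so the astrocyte markers did not all follow their sum either. Microglial sums were 57.1, 77.0 and 52.3 CPM in libraries 19, 5 and 17, against 39.4 to 48.9 CPM in the others. Endothelial sums were 19.1, 23.8 and 18.7 CPM, against 10.9 to 15.9 CPM. Of the measured microglial and endothelial markers, only C1qa and Cldn5 were higher in all 3 libraries than in any other, and the rest overlapped. Oligodendrocyte sums overlapped, at 799, 840 and 643 CPM against 448 to 770 CPM. The neuron and astrocyte sums form separate clusters, so no correlation is given. Both genotypes were found in both clusters.

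**Figure D3:**
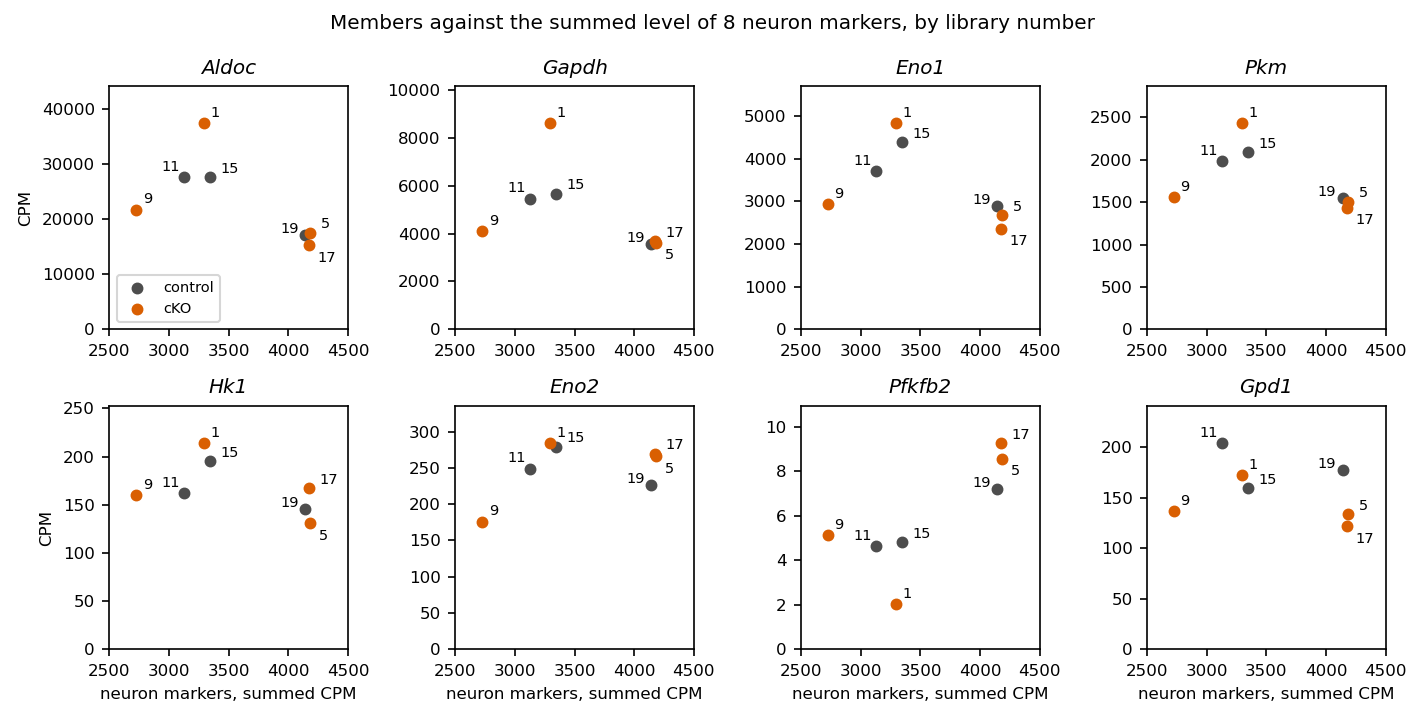
Each panel plots 1 member, in CPM, against the summed CPM of 8 neuron markers, with points numbered by library and coloured by genotype (control grey, cKO orange). Libraries 5, 17 and 19 sit together on the right, between 4141 and 4185 CPM, with the lowest values of Aldoc, Gapdh, Eno1 and Pkm and the highest of Pfkfb2, while Hk1, Eno2 and Gpd1 do not separate in this way.

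With a marker score added to the fit, the SE fell for most members and the genotype differences stayed uncalled. The score comes from the same 7 libraries, so this fit gives the difference beside marker level and not the whole genotype difference. The log2 differences ranged from -0.99 (Hk2) to 0.27 with the neuron score and from -0.62 (H6pd) to 0.28 with the astrocyte score. With genotype only they ranged from -0.48 to 0.26. A neuron score lowered the median SE of the members from 0.19 to 0.16, with a smaller SE in 34 of 35, and an astrocyte score lowered it to 0.13, with a smaller SE in 31 of 35. The log2 difference of Aldoc was 0.0059 with an SE of 0.051 beside the astrocyte score, where it was -0.065 with an SE of 0.30 without it. Gapdh had 0.088 (SE 0.075), Aldoa 0.048 (SE 0.072), Pkm -0.056 (SE 0.071) and Eno1 -0.13 (SE 0.071) in the same fit. Gpd1 kept its size, with -0.34 (SE 0.13, unadjusted p = 0.0238) beside the neuron score and -0.33 (SE 0.12, unadjusted p = 0.0201) beside the astrocyte score. Of the tested members, 0 were called in either fit.

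Shares within a library, of paralogs or of Gpd1 beside its shuttle partner Gpd2, need no scaling between libraries. None passed the exact permutation test between genotypes. With 3 libraries against 4 that test cannot go below 0.0571, so it could not have passed 0.05. Aldoc made up 87.2 ± 1.48% of aldolase counts in control (SD, n = 3) and 86.6 ± 1.54% in cKO libraries (SD, n = 4), so the astrocyte isoform was the main source of aldolase counts in every library. Eno2 made up 6.52 ± 0.669% and 7.64 ± 2.39% of enolase counts. By library, the Eno2 share was 7.27%, 9.06% and 10.3% in libraries 19, 5 and 17, which had the highest neuron marker sums. It was 5.56% to 6.31% in the others. The Aldoc share was 84.5% to 86.2% in those 3 libraries and 87.7% to 88.2% in the others. The shares are of counts, not per length, and so do not give the ratio of molecules.

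Among the phosphofructokinases, Pfkm held 56.7 ± 0.631% of counts in control and 57.2 ± 3.08% in cKO libraries, Pfkp 25.0 ± 0.708% and 23.2 ± 1.77%, and Pfkl 18.4 ± 0.760% and 19.6 ± 1.98%. Hk2 held 0.774 ± 0.503% and 0.570 ± 0.605% of Hk1 and Hk2 counts, and Pfkfb3 held 64.6 ± 4.11% and 60.5 ± 7.92% of the counts of Pfkfb2, Pfkfb3 and Pfkfb4. With all 7 libraries, the largest of the differences in percentage points was in Gpd1, which held 53.3%, 45.6% and 51.0% of Gpd1 and Gpd2 counts in control libraries 11, 15 and 19 and 47.7%, 41.3%, 41.2% and 45.6% in cKO libraries 1, 5, 9 and 17. This was a difference of -6.00 percentage points with overlapping groups (exact two-sided permutation test, p = 0.171, adjusted over 8 shares 0.686). It exceeded the SD of either group, 3.95 and 3.27 points, and lay between -8.19 and -4.35 points when 1 library was left out. The difference of the Pfkfb3 share, -4.08 points, moved between -7.31 without cKO library 1, where that of Gpd1 was -7.27, and -1.10 without cKO library 17. Over the 8 shares the adjusted p of the exact permutation test lay between 0.686 and 0.914.

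**Figure D4:**
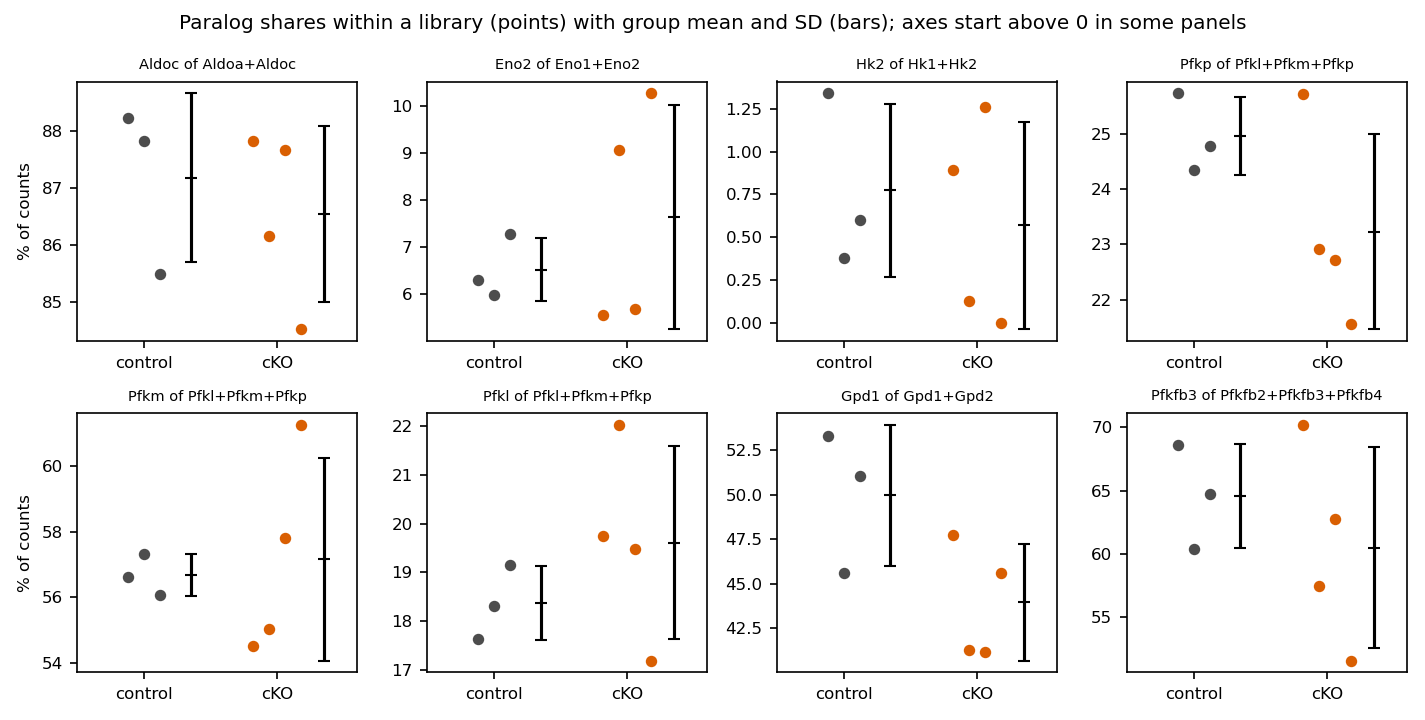
Points are the percent of counts that a gene holds in its set in each control (grey) and cKO (orange) IP library. A set holds paralogs, except that Gpd1 is set beside its shuttle partner Gpd2. Black bars are group means with SD. The vertical axes differ between panels, and some start above 0. The groups overlap in all 8 panels, and the means of the Gpd1 share lie 6.00 percentage points apart.

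A wider list of 43 other genes of the same and neighbouring pathways gave the same count. Of these, 33 passed the low-count filter, 0 were called and 0 had an unadjusted p under 0.05 in edgeR's quasi-likelihood test, with 13 positive and 20 negative differences and a median log2 difference of -0.041. The other 10, among them the pyruvate kinase Pklr and the testis isoform Pgk2, were too low to be tested. Near-identical copies drew few counts: Eno1b had 15 to 95 per library, Aldoart1 at most 26, and Aldoart2 and Gapdhs at most 4 each.

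The members lay on 15 chromosomes, and 4 of them shared chromosome 4 with Slc2a1 (GRCm38.p6, chr4:119108745-119137330). Eno1, H6pd and Pgd lay 30.04 to 31.13 Mb from it, and Galt 77.4 Mb. All 4 had negative differences, from -0.39 (H6pd) to -0.11 (Galt), with intervals that include 0. Negative differences were found in 24 of the 35 tested members, and H6pd and Pgd also belong to the oxidative pentose phosphate arm above.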

How the data were processed

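RNA of cortical IP samples was sequenced from Smart-seq2 libraries. The authors trimmed reads (cutadapt 1.15), assigned them to GENCODE vM17 transcripts (GRCm38) with kallisto 0.44.0, and deposited estimated counts per gene, not normalized for depth or length. Kallisto divides a read among transcripts that share its sequence. The table has 18 columns, of which 7 were used. Neither the labels nor the column names give their group, which was read from the study's own listing of those library names as control or cKO IP. The other 11 columns were not used, so IP was not compared with input. The columns carry no replicate number.

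Counts were rounded to whole numbers, filtered with filterByExpr (13296 genes left), and scaled by TMM. Genotype alone was fitted in R 4.3.3, where edgeR 4.0.16 gave quasi-likelihood p-values that were adjusted over all genes by Benjamini-Hochberg and called at 0.05. The study's own choice, edgeR's exact test, and DESeq2 1.42.0 were alternatives, beside RLE factors, library size, other low-count filters, marker scores (the mean log2 of CPM + 1) as covariates, summing near-identical copies and leaving out each library. Shares of paralogs, and of Gpd1 beside Gpd2, were compared by an exact two-sided permutation test. They were planned per length, but transcript lengths were not used here and counts were taken as they are. CPM is TMM-normalized. In simulated counts of 13296 genes for the same comparison, the test called 44 of 100 genes changed by 1 on the log2 scale, 79 of 100 changed by 2, and 8 unchanged genes. No 2 libraries of a genotype agreed within counting noise (lowest chi-square per degree of freedom 32.8).

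The members and lists were chosen with earlier results of these data known. Values in every library are given for Hk1, Hk2, Aldoa, Aldoc, Pfkl, Pfkm, Pfkp, Eno1, Eno2, Pkm, Gapdh, Pfkfb3, G6pdx, Tkt, Gpd1, Gpd2 and any member with an unadjusted p under 0.05, and the others by mean, SD or range. Khk, Rpe, G6pc3, Pgd and Pfkfb2 were singled out, and Gpd1l and the copies named, after their values were seen. Gene positions and promoters are those of RefSeq (GRCm38.p6), with positions for 36 of 36 members and promoter windows for 34. Gpd1 and Akr1b3 had no window in that table. Intervals and floors of 3 counts cover counting error only where they rest on counts of 1 library.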

Additional observations from a re-analysis of the deposited data

Results flagged for a closer look

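In 8 of the 35 members tested, 1 of the 4 cKO libraries stood apart from the other 3 by Dixon's test. By chance the test flags about 1 in 20 groups, or 1.75 of 35. The share flagged among all genes was not computed, so the count cannot be called particular to these members. Library 1 was the high one for 5 genes: Gpi1 at 679 CPM, Aldoa at 5185 CPM, Tpi1 at 1934 CPM, Gapdh at 8620 CPM and Pkm at 2433 CPM. These genes vary together across libraries, so the flags are not independent. Adpgk was low in library 5, at 17.3 CPM, Eno2 was low in library 9, at 176 CPM, and Gpd2 was low in library 17, at 145 CPM. The 3 control libraries were too few for this test.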

How the results depend on the processing

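Under every alternative run, 0 members and 0 genes of the wider list were called, and the count of members with an unadjusted p under 0.05 ranged from 0 to 5 when 1 library was left out. It was 5 without cKO library 1, 1 without control library 15 and 0 without any other library. No paired analysis was possible because the columns carry no replicate number of the labels. The length-scaled shares and another length measure were not run. Of 304 values for 19 genes under 16 alternatives, 34 changed sign and 0 came past the threshold after adjustment. The lowest unadjusted p of a value that changed sign was 0.0653 (Gapdh without cKO library 1), and the cause was not tested. The log2 difference of Aldoa became -0.00065 with RLE factors, -0.012 by library size only, -0.0029 without the low-count filter and -0.00065 in DESeq2. That of Gpd2 became 0.0063 by library size only, 2.72e-05 with at least 1 CPM in 3 libraries, 0.0080 with the neuron score and 0.018 with the astrocyte score. Hk1 became -0.0016 without the low-count filter, and with the astrocyte score Aldoc became 0.0059 and Eno2 0.0071. Leaving out 1 library at a time moved Hk1 between -0.13 and 0.13, Pfkl between -0.12 and 0.14, Pfkm between -0.21 and 0.026, Aldoa between -0.26 and 0.090, Aldoc between -0.40 and 0.088, Gapdh between -0.36 and 0.16, Eno2 between -0.087 and 0.11, G6pdx between -0.30 and 0.034, Tkt between -0.099 and 0.15 and Gpd2 between -0.050 and 0.088. The member median moved between -0.18 and 0.034. In percentage points, the share difference of Aldoc moved between -1.49 and 0.033, that of Hk2 between -0.434 and 0.079 and that of Pfkm between -0.882 and 1.36. Rpia, with at most 13 counts in any library, did not pass the low-count filter. In cKO library 17, the shallowest, 3 counts are 0.222 CPM.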

Other observations

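Lactate dehydrogenase and the enzymes that link glycolysis to glycogen and glycosylation were measured in the wider list. Ldha and Ldhb, which interconvert pyruvate and lactate, stood at 683 and 3461 CPM in control (n = 3) and at 681 and 3223 CPM in cKO libraries (n = 4), with log2 differences of -0.0036 (SE 0.20) and -0.10 (SE 0.26). Pgm2 and Ugp2, on the way from glucose 6-phosphate to UDP-glucose, had differences of -0.041 (SE 0.20) and -0.13 (SE 0.17). Gfpt1, the entry to the hexosamine pathway, had 0.28 (SE 0.30). The lowest unadjusted p of the list was that of the galactokinase relative Galk2, 0.0744, at -0.42 (SE 0.21), with an adjusted p of 0.9996 in edgeR's quasi-likelihood test. Gnpda1, which returns glucosamine 6-phosphate to glycolysis, was the only one of the 33 whose groups did not overlap, with a difference of 0.18 (SE 0.15). This is 3.03% of the list, against 2.35% of all genes separated upwards and 5.11% in either direction. These genes were named after their values were seen.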
